A study of Mus musculus with 24 samples.

Results

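Livers labelled hepatic Atg5/TSC1/p62 TKO (p62 TKO, 4 libraries) were compared directly with livers labelled hepatic Atg5/TSC1/Nrf2 TKO (Nrf2 TKO, 4 libraries). These are 8 of the 24 polyadenylated RNA libraries of the series, chosen by genotype label. All came from C57BL/6J mice aged 2 months. Both groups carry the deletions of Atg5 and Tsc1 as labelled, and they differ in the further deletion, of p62 (gene Sqstm1) in one and of Nrf2 (gene Nfe2l2) in the other. Wild-type livers (WT, 4 libraries) and livers labelled with the Atg5 and Tsc1 deletions only (DKO, 4 libraries) give the levels with neither deletion and with the shared deletions. The labels do not name the promoter behind the deletions, the exons removed, the sex of the mice, a litter or a batch. They also do not say whether the libraries of a group came from different mice, so the p-values refer to the spread among libraries, which may be partly technical.

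The usual route of autophagosome formation needs ATG5, and TSC1 holds back mTORC1, the kinase complex that drives cell growth. p62 is a cargo receptor that autophagy normally degrades, and p62 that builds up can bind KEAP1, the adaptor that otherwise marks NRF2 for destruction. NRF2 then pairs with small MAF proteins on antioxidant response elements and switches on genes of glutathione synthesis, NADPH supply, drug conjugation and export. The series title places these deletions in the setting of ductular reaction and liver tumours. The direct contrast asks how the livers differ when either the receptor or the transcription factor is removed on the same background.

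Levels are CPM, counts relative to library size after TMM scaling, given per library in the order 1 to 4 or as mean ± SD (n = 4). Changes are log2 fold changes ± SE, p62 TKO minus Nrf2 TKO, so a positive value means higher in p62 TKO. A gene is called at an adjusted p under 0.05 in the quasi-likelihood test of edgeR, adjusted by the Benjamini-Hochberg method across the 15851 genes tested, and every adjusted p below comes from that test unless another tool is named.

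Total counts ran from 11104112 to 12795277 per library in p62 TKO and from 10494080 to 12221723 in Nrf2 TKO. Mitochondrially encoded genes took 3.91% to 4.97% of the counts in p62 TKO but 5.38% to 7.57% in Nrf2 TKO, and the 20 most abundant genes took 16.3% to 18.2% and 20.2% to 22.9%. Alb, the serum albumin gene made by hepatocytes, held 14734 to 51813 CPM. The other organs' lists were close to absent: of 14 pancreatic acinar genes 1 passed the filter on low counts, and 10 adipose and muscle genes summed to at most 1.27 CPM in any of the 8. The first principal component of these libraries held 50.5% of the variance and set p62 TKO (scores 32.0 to 44.0) apart from Nrf2 TKO (-51.7 to -22.5).

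A library of each group stood apart from the rest of its group. Nrf2 TKO library 2 had 14173 counts of Xist, the RNA that coats an inactive X chromosome, against 1 to 48 in the other 23 libraries. It nearly lacked the Y-linked transcripts, with 0.372 CPM of Ddx3y and 0.149 CPM of Eif2s3y, where the other 7 libraries of the comparison held 69.0 to 91.2 and 62.4 to 85.2 CPM. Of the further Y-linked genes it held 0.0743 CPM of Kdm5d and 0 CPM of Uty, 1 and 0 counts, and with it none of these 4 genes passed the test between the groups (adjusted p from 0.72 to 0.94). Without it Eif2s3y was called lower in p62 TKO (-0.32, adjusted p = 0.013). By these transcripts Nrf2 TKO library 2 reads as female and the other 7 libraries as male, although the labels give no sex. Sex is then not balanced between the groups, and the fit has no term for it. Nrf2 TKO library 2 also stood alone on the second component (17.4% of the variance), at a score of 46.0 where the other 7 lay from -25.3 to 11.01. p62 TKO library 4 held more Sqstm1 than the other p62 TKO libraries and had the highest levels of several NRF2 target genes. Both libraries stay in the values below, and results that rest on either are given with and without it.

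**Figure D1:**
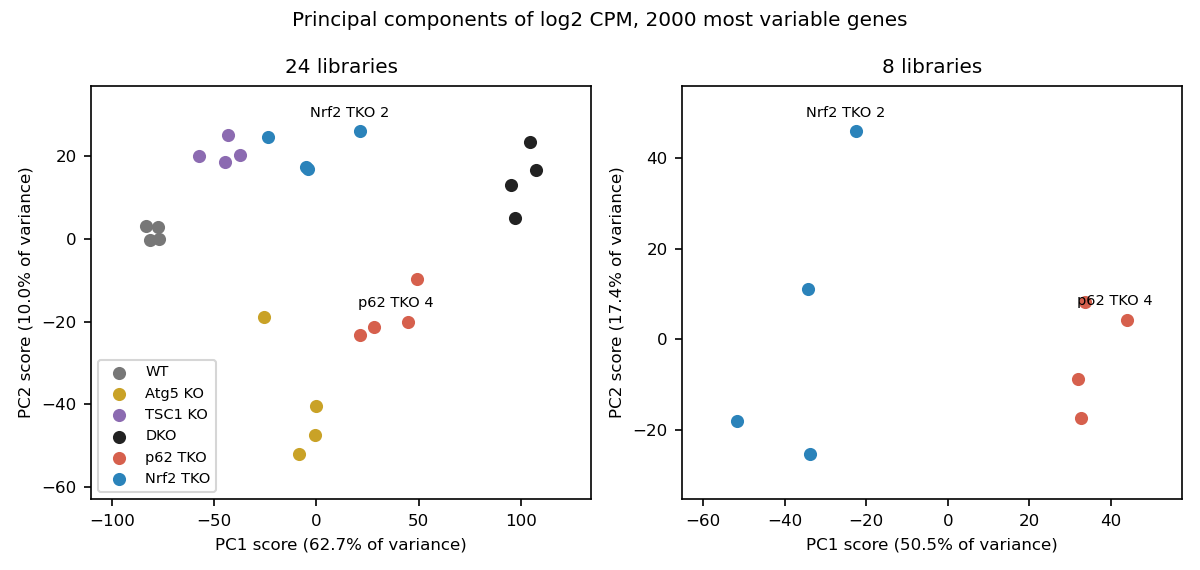
Principal component scores of the 2000 most variable genes, each point 1 library, coloured by genotype, with the percentage of variance on each axis. In the left panel (24 libraries) both triple knockouts lie between WT and DKO on the first component, Nrf2 TKO at scores of -23.8 to 21.3 and p62 TKO at 21.5 to 49.4, and they take opposite sides of the second. In the right panel (8 libraries) the first component separates the triple knockouts and the second sets Nrf2 TKO library 2 apart.

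The deleted genes were measured first. Nfe2l2 (ENSMUSG00000015839) lies on chromosome 2, 75675513 to 75704641, minus strand, in GRCm38. Its level was 127, 122, 126 and 116 CPM in p62 TKO, against 11.8, 17.7, 8.72 and 8.69 CPM in Nrf2 TKO. All 4 Nrf2 TKO libraries lay far below all 4 p62 TKO libraries (3.38 ± 0.21, adjusted p = 4.5e-10), and below the WT level of 66.9 ± 10.2 CPM. Sqstm1 (ENSMUSG00000015837) lies on chromosome 11, 50199366 to 50210827, minus strand, and its level was 249, 439, 363 and 774 CPM in p62 TKO, against 535, 552, 575 and 975.4 CPM in Nrf2 TKO. The groups overlapped through p62 TKO library 4, and the difference did not pass the test (-0.53 ± 0.25, adjusted p = 0.15), but it passed without that library (-0.91, adjusted p = 0.0094). The opposite strand of Sqstm1 holds part of Mrnip, and the sources used here do not give whether the counting used strand. Atg5, deleted in both groups, stood at 38.1 ± 3.26 CPM in p62 TKO and 41.05 ± 8.22 CPM in Nrf2 TKO (-0.11 ± 0.12, adjusted p = 0.60). Tsc1, also deleted in both, stood at 22.4 ± 2.43 CPM and 30.1 ± 6.55 CPM (-0.43 ± 0.19, adjusted p = 0.13, but 0.044 without Nrf2 TKO library 3). A count over a whole gene includes exons outside a deleted part, so p62 TKO and Nrf2 TKO name the libraries as labelled.

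Of the 15851 genes tested, 2776 (17.5%) were called. In p62 TKO 1649 (10.4%) were higher and 1127 (7.11%) were lower than in Nrf2 TKO. The median fold among the calls was 2.09 for the higher and 1.76 for the lower genes, and 878 and 450 of them differed at least 2-fold. The 4 libraries of one group lay above all 4 of the other for 2917 of the genes tested (18.4%), and for 2126 of the 2776 calls (76.6%). Of the 2776 calls, 2301 (82.9%) were still called without Nrf2 TKO library 2, 1 of the 2776 then had the opposite sign, and the counts without it were 1672 higher (10.3%) and 1148 lower (7.1%). Without p62 TKO library 4 they were 1375 (8.48%) and 780 (4.81%), and without both libraries 1432 (8.88%) and 831 (5.15%). Scaling by total counts alone moved the median of all genes by 0.20, from -0.01 to 0.19, and changed the split to 2987 higher (18.8%) and 549 lower (3.46%), so changes below are relative to the TMM-scaled median.

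**Figure D2:**
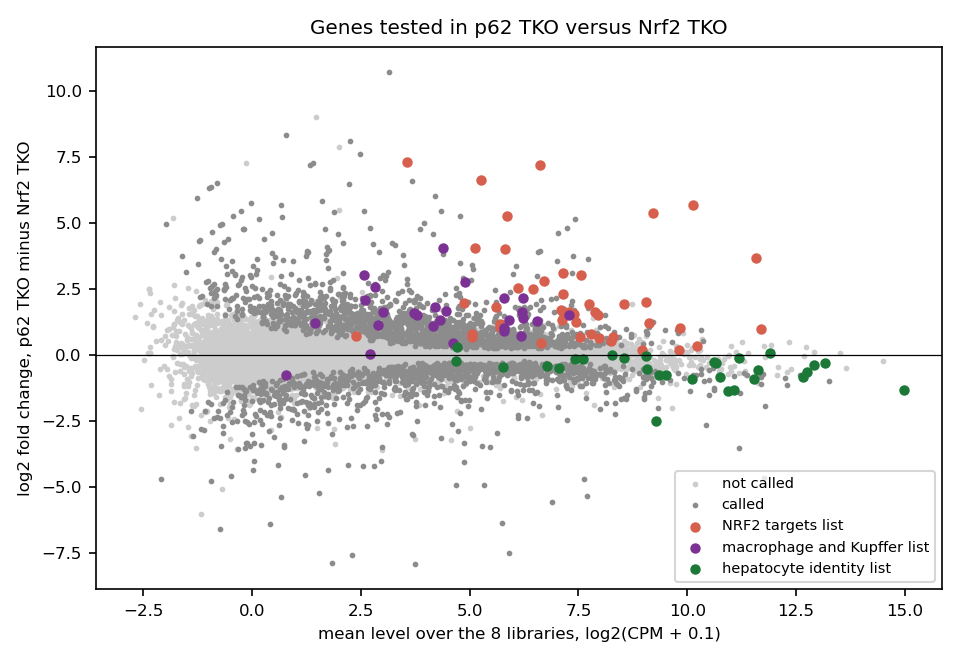
Log2 fold change of each tested gene (p62 TKO minus Nrf2 TKO) against its mean level over the 8 libraries, log2(CPM + 0.1), each point 1 gene. Called genes are dark grey, and 3 gene lists are coloured: members of the NRF2 target list (red) lie above 0, most macrophage members (purple) lie above 0, and most hepatocyte members (green), at the high end of expression, lie at or below 0.

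NRF2 target genes were higher in p62 TKO. Of the 45 listed, all tested, 37 were higher in p62 TKO and 0 lower, where 10.4% of all genes tested were called higher, and the median change was 1.61 against -0.01 over all genes. The changes of the 45 ran from 0.17 to 7.32. The groups did not overlap for 18.4% of all genes tested and for 35 of the 45. Their summed level was 17373 to 38132 CPM in p62 TKO and 8254 to 9254 CPM in Nrf2 TKO, beside 11837 to 15925 CPM in WT and 14807 to 25927 CPM in DKO. Without Nrf2 TKO library 2 the list had 36 higher and 0 lower, and without p62 TKO library 4, the library with the highest sum, 33 higher and 0 lower.

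Nqo1, a quinone reductase widely read as an NRF2 target, stood at 42.5, 49.6, 40.01 and 129 CPM in p62 TKO and at 4.95, 6.096, 2.23 and 2.03 CPM in Nrf2 TKO. The groups did not overlap, p62 TKO library 4 was the highest of all, and the Nrf2 TKO values lay on both sides of the WT mean of 5.28 ± 0.380 CPM while DKO held 80.5 ± 19.4 CPM (4.07 ± 0.42, adjusted p = 2.1e-06, or 3.501 without p62 TKO library 4). Slc7a11, the cystine importer that feeds glutathione synthesis, stood at 139, 161, 136 and 337 CPM against 3.07, 0.892, 0.484 and 0.869 CPM (7.203 ± 0.69, adjusted p = 1.4e-06). Gpx2, a glutathione peroxidase, stood at 7.998, 23.8, 24.8 and 36.8 CPM against 0.495, 0.0743, 0 and 0 CPM (7.32 ± 0.78, adjusted p = 4.2e-06); it overlaps Fntb on the other strand. For both genes every p62 TKO library lay above every Nrf2 TKO library, and the Nrf2 TKO levels were near 0.

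Conjugating enzymes made up much of the list. Gstm1, a glutathione transferase, stood at 2997, 5609, 4169 and 9879 CPM in p62 TKO and 608, 548, 250.2 and 359 CPM in Nrf2 TKO (3.68 ± 0.36, adjusted p = 6.2e-07). Its Nrf2 TKO values lay below the WT mean of 1305 ± 310.5 CPM, and DKO held 4657 ± 1081 CPM. Gsta1 stood at 37.8, 68.3, 52.5 and 144 CPM against 1.88, 0.149, 0.678 and 0.483 CPM (6.62 ± 0.72, adjusted p = 6.2e-06), and Cyp2a5, a coumarin hydroxylase, at 1146, 1982, 1941 and 3716 CPM against 61.3, 83.6, 22.3 and 3.96 CPM (5.68 ± 0.68, adjusted p = 1.4e-05). Each of these genes has near-identical paralogs, so single members of the Gstm, Gsta and Cyp2a clusters are less certain than their common direction. Cbr3, a carbonyl reductase, differed by 5.28 ± 0.51 (adjusted p = 1.4e-06). The exporter gene Abcc4 stood at 82.4, 81.1, 70.1 and 192 CPM against 6.04, 9.22, 5.62 and 4.83 CPM (4.04 ± 0.39, adjusted p = 1.0e-06), with p62 TKO library 4 again far above the other 3.

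Genes of glutathione synthesis, thiol reduction and iron storage were higher as well. Gclc, the catalytic subunit of the rate-limiting enzyme of glutathione synthesis, averaged 857 ± 418 CPM in p62 TKO and 212 ± 58.6 CPM in Nrf2 TKO (2.01 ± 0.33, adjusted p = 0.00028), and its modifier subunit Gclm averaged 307 ± 42.9 and 194 ± 28.02 CPM (0.66 ± 0.13, adjusted p = 0.0015). Srxn1, which repairs oxidised peroxiredoxins, differed by 3.03 ± 0.37 (adjusted p = 1.3e-05). Fth1, the ferritin heavy chain, stood at 3285, 4528, 3922 and 5805 CPM against 1979.5, 2255, 2275 and 2374 CPM (0.98 ± 0.20, adjusted p = 0.0017). The 8 members that did not pass were Gsta3, Abcc2, Prdx1, Gstm6, Txn1, Mgst3, Akr1b8 and Gstp1, with changes from 0.17 to 0.81. Prdx1, a peroxiredoxin, stood at 1072, 1479, 1222 and 1574 CPM and 1074, 878, 1159 and 1111 CPM, and the groups overlapped (0.34 ± 0.17, adjusted p = 0.17). Gclm, Srxn1 and Gsta3 were named after their values were seen.

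**Figure D3:**
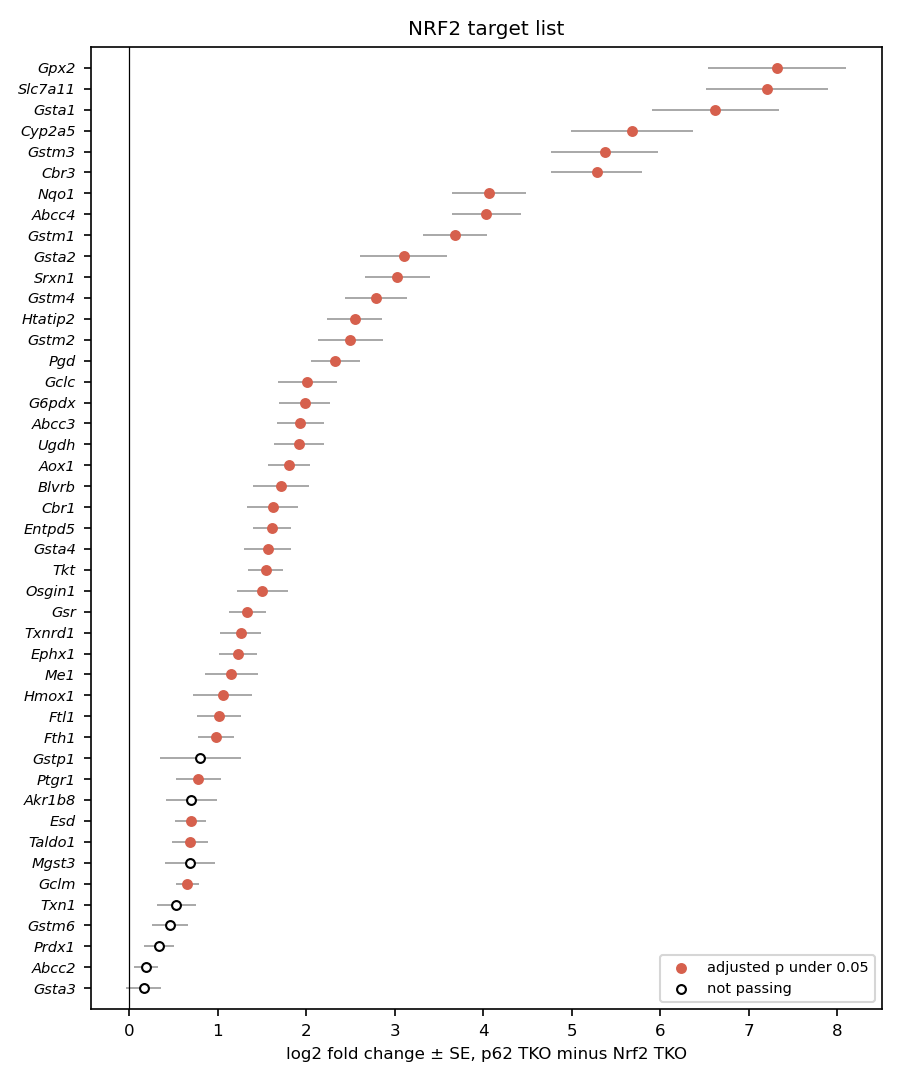
Log2 fold change ± SE (horizontal axis, p62 TKO minus Nrf2 TKO) of the 45 NRF2 target genes, ordered by size. Filled points passed the test and open points did not: all 45 lie right of 0, from Gsta3 at 0.17 to Gpx2 at 7.32, and the 8 open points all lie under 1.

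The promoters of these genes were searched for the core of the antioxidant response element, TGACNNNGC, on both strands, from 250 bases before to 50 after the RefSeq start (GRCm38.p6). RefSeq promoters were found for 40 of the 45 members, and 12 of the 40 (30%) held the core, as did 9 of the 32 called members with a promoter (28.1%). Among the 11372 tested genes with a promoter 16.8% held it, and among all 32851 promoters 12.4%. These windows are shown as examples from a called transporter gene, a called synthesis gene and 2 of the 3 members with the core but no call, since the core stood in windows of called and of uncalled members. The capitals mark the match, which lies on the printed strand for Gsta3 and on the opposite strand for Abcc4, Gclm and Prdx1.
Abcc4 (chr14:118706220-118706304, minus strand): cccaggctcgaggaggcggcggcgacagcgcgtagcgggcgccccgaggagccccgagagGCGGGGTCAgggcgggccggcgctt
Gclm (chr3:122245363-122245491, plus strand): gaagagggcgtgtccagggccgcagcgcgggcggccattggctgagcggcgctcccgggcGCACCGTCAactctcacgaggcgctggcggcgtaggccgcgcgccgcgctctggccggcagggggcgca
Prdx1 (chr4:116685406-116685534, plus strand): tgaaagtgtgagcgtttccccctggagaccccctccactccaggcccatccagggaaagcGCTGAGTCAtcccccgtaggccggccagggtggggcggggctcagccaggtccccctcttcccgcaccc
Gsta3 (chr1:21240404-21240532, plus strand): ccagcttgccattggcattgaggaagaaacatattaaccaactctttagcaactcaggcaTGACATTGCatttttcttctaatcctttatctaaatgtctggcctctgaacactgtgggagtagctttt
A match of these letters is a description of the window and no evidence of binding. Of the genes printed, Abcc4 differed by 4.04 and Gclm by 0.66, while Prdx1 (0.34) and Gsta3 (0.17) did not pass.

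Most regulators of NRF2 did not pass the test. Of the 12 genes of the KEAP1-NRF2 control list, which includes Sqstm1 and Nfe2l2, 3 were higher in p62 TKO and 0 lower (median 0.07), where 10.4% of all genes tested were called higher. Beside Nfe2l2 these were Nfe2l1, its relative that drives proteasome genes (154, 160.2, 156 and 167 CPM against 100.1, 115, 124 and 128 CPM, 0.45 ± 0.09, adjusted p = 0.0015), and Mafg, a small MAF partner (0.40 ± 0.13, adjusted p = 0.037). The Mafg call was lost without p62 TKO library 2, 3 or 4 or Nrf2 TKO library 1, 2, 3 or 4 (adjusted p from 0.058 to 0.15). Keap1 stood at 40.7, 52.3, 49.4 and 42.2 CPM in p62 TKO and 46.7, 41.3, 45.2 and 42.5 CPM in Nrf2 TKO and did not pass (0.07 ± 0.09, adjusted p = 0.63). Nfe2l3, another relative, stood at 2.83 ± 1.36 and 6.03 ± 2.52 CPM (-1.08 ± 0.39, adjusted p = 0.059, but from 0.021 to 0.042 without p62 TKO library 1, Nrf2 TKO library 3 or Nrf2 TKO library 4). Maff, Mafk, Bach1, Cul3, Rbx1 and Crebbp did not pass either.

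Autophagy genes were called in both directions. Of 30 tested, 3 were higher and 2 lower in p62 TKO (median -0.05, or 0.16 with total counts alone), a share near the 17.5% called among all genes tested. Atg3, the enzyme that passes LC3 to lipid, stood at 66.7, 69.03, 72.7 and 67.8 CPM in p62 TKO and 102, 86.01, 102 and 93.7 CPM in Nrf2 TKO, with no overlap (-0.47 ± 0.11, adjusted p = 0.0039). Atg10 was the other lower gene (-0.73 ± 0.24, adjusted p = 0.043), a call lost without p62 TKO library 1, 3 or 4 or Nrf2 TKO library 1 or 2 (adjusted p from 0.059 to 0.16). The higher genes were Map1lc3a (0.51 ± 0.16, adjusted p = 0.032), Atg12 (0.47 ± 0.13, adjusted p = 0.015) and Becn1 (0.25 ± 0.09, adjusted p = 0.045) but all 3 calls were lost on leaving out single libraries. Map1lc3a was lost without p62 TKO library 2 or 4 or Nrf2 TKO library 1, 2 or 4 (adjusted p from 0.064 to 0.14). Atg12 was lost without p62 TKO library 4 or Nrf2 TKO library 1 or 2 (adjusted p from 0.051 to 0.11). Becn1 was lost without p62 TKO library 1, 2, 3 or 4 or Nrf2 TKO library 1, 2, 3 or 4 (adjusted p from 0.051 to 0.24).

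Lysosomal genes were higher in p62 TKO where called, with 1 exception. Of 32 lysosome and TFEB target genes tested, 16 were higher and 1 lower (median 0.29), where 10.4% of all genes tested were called higher, with 14 higher and 0 lower without Nrf2 TKO library 2 and 15 higher and 0 lower without p62 TKO library 4. Cd63, a membrane protein of late endosomes, stood at 126, 106, 124 and 224 CPM against 36.3, 54.2, 24.4 and 35.2 CPM (1.95 ± 0.26, adjusted p = 3.0e-05). Rragd, a GTPase that couples the lysosome to mTORC1, stood at 137, 92.8, 113 and 135 CPM against 26.6, 39.6, 30.9 and 37.5 CPM (1.83 ± 0.31, adjusted p = 0.00038). Neither gene's groups overlapped, and both groups stood above WT, where Cd63 held 3.11 ± 0.515 and Rragd 1.73 ± 0.950 CPM. The hydrolase genes Hexa (1.12 ± 0.16, adjusted p = 6.3e-05), Ctsd (0.89 ± 0.14, adjusted p = 0.00016), Lipa (0.70 ± 0.13, adjusted p = 0.00066) and Neu1 (0.57 ± 0.10, adjusted p = 0.00042) were also higher. Tfe3, a transcription factor of lysosomal genes, did not pass (0.16 ± 0.13, adjusted p = 0.45), but passed without Nrf2 TKO library 4 (0.34, adjusted p = 0.036). Atp6v0d2, a proton pump subunit, was the member called lower (-1.26 ± 0.44, adjusted p = 0.049), lost without p62 TKO library 1, 2, 3 or 4 or Nrf2 TKO library 1 or 2 (adjusted p from 0.052 to 0.28).

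Macrophage markers were higher in p62 TKO nearly throughout. Of 27 tested, 22 were higher and 0 lower (median 1.53), where 10.4% of all genes tested were called higher. The counts were the same without Nrf2 TKO library 2, and 21 and 0 without p62 TKO library 4. For 24 of the 27 the groups did not overlap, as for 18.4% of all genes tested. The summed level of these markers was 1242 to 1724 CPM in p62 TKO and 381 to 622 CPM in Nrf2 TKO. WT held 346 to 557 CPM and DKO 973 to 1486 CPM. In bulk RNA more cells of a type cannot be told apart from more RNA per cell, or from transcripts of these markers in other cells. The part of the macrophage markers in the lysosomal result above and in the results below was not tested.

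Gpnmb, a glycoprotein of lipid-laden and phagocytic macrophages, stood at 31.1, 37.9, 30.9 and 56.5 CPM in p62 TKO and 2.08, 3.87, 1.16 and 1.93 CPM in Nrf2 TKO (4.07 ± 0.37, adjusted p = 3.3e-07). Lgals3, galectin 3, stood at 33.5, 70.5, 50.5 and 52.8 CPM against 10.1, 8.33, 3.49 and 8.02 CPM (2.79 ± 0.35, adjusted p = 1.9e-05), and Trem2, a lipid-sensing receptor, at 14.2, 10.1, 14.8 and 8.801 CPM against 2.38, 2.45, 1.07 and 2.12 CPM (2.57 ± 0.35, adjusted p = 3.0e-05). All p62 TKO values of these 3 genes lay above all Nrf2 TKO values. Markers shared by most macrophages were higher as well: C1qb, a complement subunit (128, 93.1, 140.4 and 86.5 CPM against 35.4, 39.5, 26.8 and 43.8 CPM, 1.62 ± 0.27, adjusted p = 0.00038), Cd68 (1.67 ± 0.30, adjusted p = 0.00063) and Lyz2 (1.53 ± 0.26, adjusted p = 0.00038). Among markers of resident Kupffer cells Timd4 (2.095) and Cd5l (2.16) were called, while Clec4f (1.02) and Vsig4 (1.12) were not, nor were Marco, Mrc1 and Cd163. Ccr2, carried by recruited monocytes, was called (1.82).

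Other immune and vascular markers were called in 3 genes, where 17.5% of all genes tested were called. Of 18 lymphocyte markers tested (21 listed) 1 was higher, Cd8b1 (1.46 ± 0.47, adjusted p = 0.034), a call lost without p62 TKO library 1 or 3 or Nrf2 TKO library 2, 3 or 4 (adjusted p from 0.059 to 0.16), and 3 were higher without p62 TKO library 2, without Nrf2 TKO library 1 or with total counts alone. In that last setting 18.8% of all genes tested were called higher. Of 7 neutrophil markers tested (11 listed) and 6 erythroid markers tested (8 listed) edgeR and DESeq2 called 0, and 0 had an unadjusted edgeR p under 0.05. Of 18 endothelial markers 2 were higher, Flt4, a lymphatic and sinusoidal receptor (0.76 ± 0.20, adjusted p = 0.0097), and Stab1, a scavenger receptor (0.56 ± 0.18, adjusted p = 0.037), lost without p62 TKO library 1, 3 or 4 or Nrf2 TKO library 1, 3 or 4 (adjusted p from 0.074 to 0.13).

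Interferon-stimulated genes followed the same direction. Of 26 tested, 11 were higher and 0 lower in p62 TKO (median 0.77), where 10.4% of all genes tested were called higher. The counts were 11 and 0 without Nrf2 TKO library 2 and 13 and 0 without p62 TKO library 4. They fell to 7 and 0 without Nrf2 TKO library 1 and to 6 and 0 without Nrf2 TKO library 3 or p62 TKO library 3. Rsad2, an antiviral enzyme, stood at 42.5, 76.6, 95.03 and 108 CPM against 16.1, 15.5, 13.6 and 13.04 CPM (2.47 ± 0.40, adjusted p = 0.00027), and Oasl1 at 31.8, 40.95, 60.02 and 42.5 CPM against 6.24, 5.13, 10.1 and 8.69 CPM (2.55 ± 0.39, adjusted p = 0.00017). Irf7, the transcription factor that amplifies interferon production, stood at 104, 95.1, 166 and 55.9 CPM against 28.5, 21.4, 27.8 and 49.8 CPM (1.73 ± 0.29, adjusted p = 0.00038). None of these 3 overlapped between the groups, although Irf7 in p62 TKO library 4 came within a few CPM of Nrf2 TKO library 4. Mx1 was higher too (2.26 ± 0.39, adjusted p = 0.00038), while Stat2, a transducer of the interferon signal, did not pass (-0.29 ± 0.15, adjusted p = 0.20).

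Antigen presentation and chemokine genes were called in part. Of 16 MHC presentation genes 4 were higher and 0 lower, where 10.4% of all genes tested were called higher. The number higher was 2 without p62 TKO library 4, 1 without p62 TKO library 1 or 3 or Nrf2 TKO library 4 and 0 without Nrf2 TKO library 3. Among the 4 was Cd74, the class II invariant chain (471, 264, 429.8 and 346 CPM against 183, 232, 99.4 and 187 CPM, 1.11 ± 0.30, adjusted p = 0.013, and 0.052 without Nrf2 TKO library 3). Of 22 chemokines and cytokines tested (25 listed) 4 were higher and 2 lower, where 10.4% and 7.11% of all genes tested were. With total counts alone 6 were higher and 0 lower, where 18.8% and 3.46% of all genes tested were. Ccl2, which draws monocytes, stood at 17.1, 15.4, 18.8 and 11.5 CPM against 3.47, 2.82, 1.94 and 6.66 CPM (2.08 ± 0.55, adjusted p = 0.012), and Cxcl16 (0.94 ± 0.23, adjusted p = 0.0063) and Ccl20 (3.86 ± 0.93, adjusted p = 0.0073) were higher as well. The lower genes were Cxcl12 (-0.62 ± 0.21, adjusted p = 0.045) and Il18 (-0.64 ± 0.19, adjusted p = 0.021), the former lost without p62 TKO library 2, 3 or 4 or Nrf2 TKO library 1 or 2 (adjusted p from 0.074 to 0.12) and the latter without p62 TKO library 4 or Nrf2 TKO library 1 or 2 (adjusted p from 0.059 to 0.072).

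Cell cycle genes were higher in p62 TKO where called. Of 30 cell cycle genes tested, 18 were higher and 0 lower (median 1.33), where 10.4% of all genes tested were called higher, with 17 and 0 without Nrf2 TKO library 2 and 16 and 0 without p62 TKO library 4. Mki67, which marks cycling cells, stood at 23.6, 25.8, 22.9 and 30.1 CPM in p62 TKO and 8.71, 9.96, 2.91 and 4.44 CPM in Nrf2 TKO (1.97 ± 0.41, adjusted p = 0.0025). Ccnb1, the mitotic cyclin, stood at 5.59, 8.23, 6.69 and 8.41 CPM against 2.18, 1.41, 1.26 and 0.773 CPM (2.35 ± 0.43, adjusted p = 0.00064). Cdk1 (1.77 ± 0.33, adjusted p = 0.00075), the kinase it activates, and Foxm1 (1.86 ± 0.33, adjusted p = 0.00048), the transcription factor of mitotic genes, were higher too. All 4 p62 TKO libraries lay above all 4 Nrf2 TKO libraries in these 4 genes, and the WT mean was 1.07 ± 0.392 CPM for Mki67 and 0.141 ± 0.146 CPM for Ccnb1. The replication genes Mcm2 (0.62), Mcm3 (0.47), Mcm4 (0.07), Mcm5 (0.80), Mcm6 (0.78), Mcm7 (0.07) and Pcna (0.30) and Ccnd1, the cyclin of cell cycle entry (0.44 ± 0.28, adjusted p = 0.31), did not pass, although Mcm6 passed with total counts alone (adjusted p = 0.036) and in DESeq2 (adjusted p = 0.047). Which cells hold these transcripts cannot be read from bulk libraries, and the part of the macrophage markers in this result was not tested.

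Genes of fetal liver and liver tumours were higher where called. Of 19 tested (22 listed), 10 were higher and 0 lower in p62 TKO (median 1.47), where 10.4% of all genes tested were called higher. The counts were 11 and 0 without Nrf2 TKO library 2 and 9 and 0 without p62 TKO library 4. They were 10 and 1 without p62 TKO library 1 and 9 and 1 without Nrf2 TKO library 3. Of the 19 changes 14 were above 0, and the lowest was -0.96. Afp, fetal albumin, stood at 10.6, 26.1, 16.9 and 27.96 CPM in p62 TKO and 4.55, 4.98, 1.84 and 1.06 CPM in Nrf2 TKO (2.69 ± 0.53, adjusted p = 0.0015). H19, an imprinted fetal RNA, stood at 170.3, 791, 186 and 404 CPM against 19.5, 95.8, 5.33 and 3.77 CPM (3.63 ± 0.79, adjusted p = 0.0036), and Nrf2 TKO library 2 was the highest of its group, so that the change was 5.35 without it. Ly6d, a surface protein, stood at 158, 309, 209 and 334 CPM against 5.54, 17.9, 3.68 and 12.7 CPM (4.64 ± 0.73, adjusted p = 0.00028), and its p62 TKO mean of 252 ± 83.03 CPM lay above the DKO mean of 51.6 ± 42.6 CPM. Igf2bp3, an oncofetal RNA-binding protein (2.75 ± 0.49, adjusted p = 0.00048), Golm1, a Golgi protein (2.02 ± 0.31, adjusted p = 0.00011), Cd44, a hyaluronan receptor (1.54 ± 0.22, adjusted p = 8.0e-05), and Lgals1, galectin 1 (1.42 ± 0.27, adjusted p = 0.0010), were higher as well. The groups did not overlap for any of these 7 genes. The macrophage markers were higher in the same libraries, and their part in this result was not tested.

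**Figure D4:**
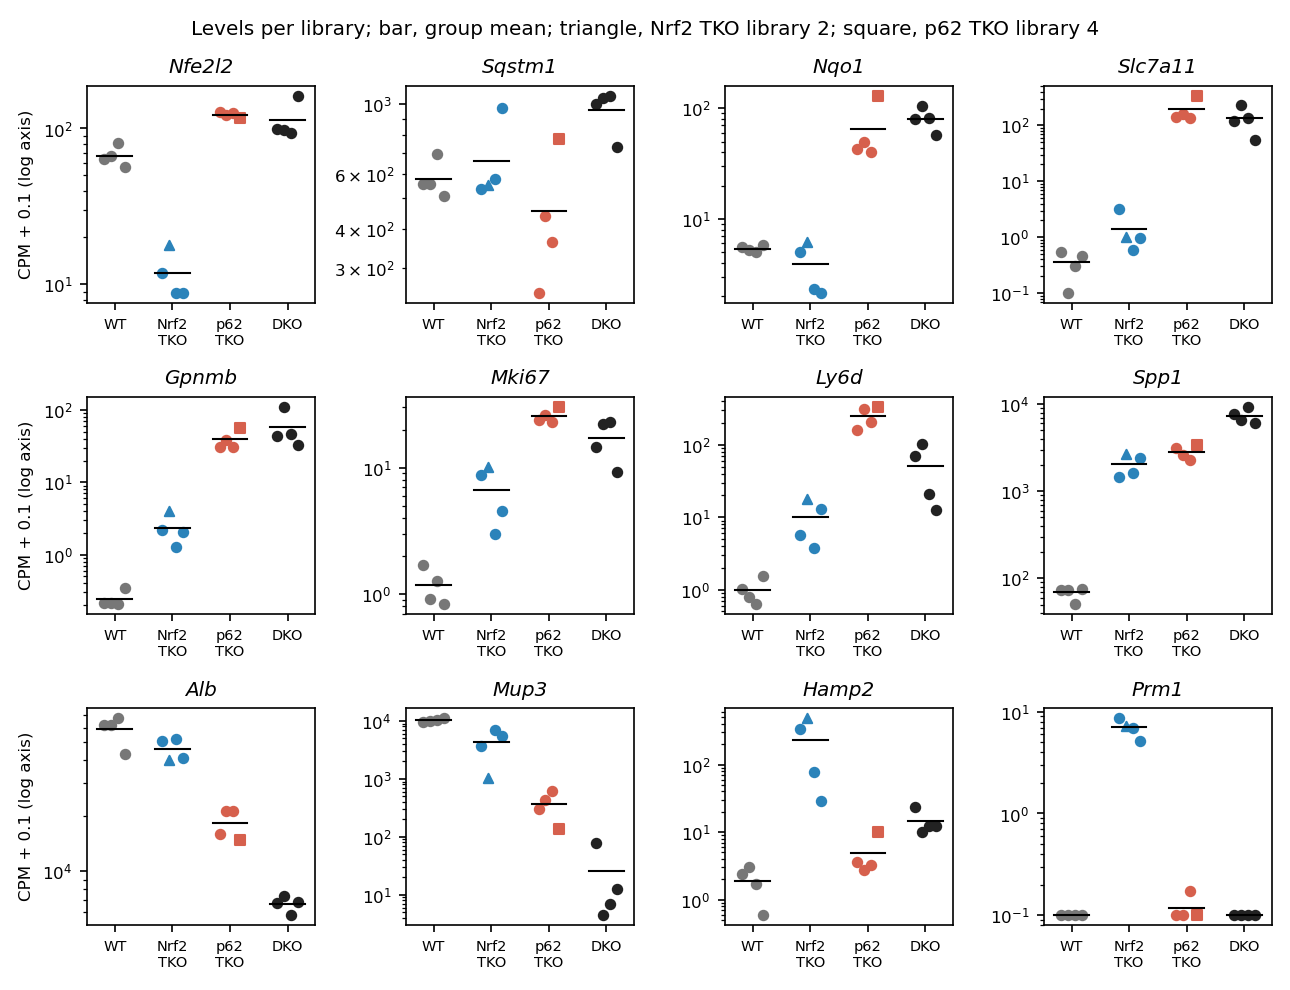
Levels of 12 genes, log scale of CPM + 0.1, each point 1 library and each bar the group mean, with the triangle for Nrf2 TKO library 2 and the square for p62 TKO library 4. In Nqo1, Slc7a11, Gpnmb, Mki67 and Ly6d the p62 TKO libraries all lie above the Nrf2 TKO libraries, in Alb, Mup3 and Hamp2 all below, and in Sqstm1 and Spp1 the groups overlap.

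Markers of bile duct cells were called in 5 genes. Of 28 tested, 4 were higher and 1 lower in p62 TKO (median 0.25), a share near the 17.5% called among all genes tested, or 7 and 1 with total counts alone and 2 and 3 without p62 TKO library 1. With total counts alone 18.8% of all genes tested were called higher and 3.46% lower. The summed level of the 28 markers was 4533 to 5767 CPM in p62 TKO and 2735 to 4257 CPM in Nrf2 TKO, between 918 to 1179.7 CPM in WT and 9489.5 to 13609 CPM in DKO. In every library of both triple knockouts Spp1, Krt8 and Krt18 made up most of this sum. Krt8 and Krt18, the keratin pair that hepatocytes also express, stood at 748, 809, 899.5 and 904 CPM against 340.4, 372, 234 and 465 CPM (1.25 ± 0.24, adjusted p = 0.00092) and at 608, 833, 704 and 632 CPM against 409, 346, 292 and 429 CPM (0.91 ± 0.20, adjusted p = 0.0032). Both were higher in every p62 TKO library. Spp1, osteopontin, stood at 3159, 2579, 2258 and 3436 CPM against 1449.7, 2667, 1610.2 and 2419 CPM, with overlapping groups, and did not pass (0.49 ± 0.27, adjusted p = 0.22), nor did Sox9 (0.14) and Krt19 (-0.27). Krt19 was called lower without p62 TKO library 1 (-0.88, adjusted p = 0.018), the library with the highest Krt19 of its group. Cdh6 was higher at a low level (1.73 ± 0.917 and 0.472 ± 0.188 CPM, 1.86 ± 0.51, adjusted p = 0.014, and 0.067 without p62 TKO library 1). Cldn4, a tight junction protein, was called (1.03 ± 0.33, adjusted p = 0.033), a call lost without p62 TKO library 1 or Nrf2 TKO library 1, 3 or 4 (adjusted p from 0.074 to 0.23). Krt23 was lower (10.5, 29.4, 8.62 and 6.37 CPM in Nrf2 TKO), a call lost without Nrf2 TKO library 2 (-1.33 ± 0.37, adjusted p = 0.014, and -0.62 with adjusted p = 0.14 without it).

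Genes of matrix and stellate cells were called in both directions. Of 33 tested, 6 were higher and 2 lower in p62 TKO (median 0.21), where 10.4% and 7.11% of all genes tested were. The counts were 11 and 2 without Nrf2 TKO library 2 (median 0.53) and 10 and 2 without p62 TKO library 2, but the median turned negative without p62 TKO library 1 (-0.12, with 5 and 3) and without Nrf2 TKO library 3 (-0.04, with 5 and 4). Loxl2, a collagen crosslinking enzyme, stood at 21.8, 10.6, 19.9 and 31.9 CPM against 4.55, 9.22, 3.099 and 3.77 CPM (2.01 ± 0.31, adjusted p = 0.00015), and Timp1, an inhibitor of matrix proteases, at 5.66, 9.93, 5.52 and 4.13 CPM against 2.38, 2.23, 1.07 and 2.03 CPM (1.699 ± 0.31, adjusted p = 0.00071). Tgfb1 (0.75 ± 0.16, adjusted p = 0.0025), Tgfb2 (1.29 ± 0.30, adjusted p = 0.0044) and Mmp14, a membrane protease (0.83 ± 0.19, adjusted p = 0.0036), were higher too. Lrat, which stores vitamin A in quiescent stellate cells, stood at 7.22, 2.06, 6.47 and 7.09 CPM against 19.999, 23.9, 13.8 and 8.21 CPM and was lower in every p62 TKO library (-1.52 ± 0.34, adjusted p = 0.0035). Col5a2 stood at 233, 319, 399.8 and 171 CPM against 1578, 476, 532 and 459.9 CPM, far above 3.98 ± 0.770 CPM in WT and 37.01 ± 4.68 CPM in DKO (-1.44 ± 0.39, adjusted p = 0.014), and was not called without p62 TKO library 4 or without Nrf2 TKO library 1 (adjusted p = 0.050 and 0.095). The fibrillar collagens Col1a1 (0.80 ± 0.31, adjusted p = 0.083, but 0.012 without Nrf2 TKO library 2 and 0.044 without p62 TKO library 2) and Col1a2 (0.73 ± 0.31, adjusted p = 0.11, but 0.020 without Nrf2 TKO library 2) did not pass. Of 26 YAP/TAZ and TEAD genes 3 were higher, Ajuba (1.33), Axl (1.09) and Wwtr1 (0.71), and 1 lower, Tead3 (-0.43). Over all genes tested 10.4% were called higher and 7.11% lower. The counts of this list were 6 and 1 without Nrf2 TKO library 2. With total counts alone they were 8 and 0, where 18.8% of all genes tested were called higher. The target Ccn2 did not pass (0.58). Tead3 was lost without p62 TKO library 2, 3 or 4 or Nrf2 TKO library 2 or 4 (adjusted p from 0.054 to 0.11).

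Hepatocyte genes were lower in p62 TKO where they were called. Of 29 hepatocyte identity genes, 0 were higher and 10 lower (median -0.45), where 7.11% of all genes tested were called lower, with 12 lower without Nrf2 TKO library 2, 8 lower without p62 TKO library 4 and 5 lower without p62 TKO library 1. Alb stood at 15889.9, 21218, 21250.0 and 14734 CPM in p62 TKO and 50835, 40116, 51813 and 41155 CPM in Nrf2 TKO, with no overlap (-1.33 ± 0.27, adjusted p = 0.0014). The WT mean was 58765 ± 10609 CPM and the DKO mean 6655 ± 646 CPM, so both triple knockouts lay between them. Hpd, a tyrosine-degrading enzyme, stood at 1069, 1483, 1526 and 840.3 CPM against 2833, 2916, 3643 and 2953 CPM (-1.33 ± 0.24, adjusted p = 0.00050), and G6pc, which releases glucose, at 185, 215, 255 and 80.1 CPM against 939, 903, 2013 and 378 CPM (-2.53 ± 0.54, adjusted p = 0.0028). Both were lower in every p62 TKO library. Of the transcription factors that maintain the cell type, Hnf4a stood at 525 ± 78.6 and 542 ± 316 CPM (-0.05 ± 0.25, adjusted p = 0.93) and Foxa2 differed by 0.30 ± 0.23 (adjusted p = 0.40). The macrophage markers were higher where these genes were lower, and their part in the result was not tested.

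The lower hepatocyte genes included several of the periportal zone. Of 20 periportal genes 1 was higher and 6 lower (median -0.90), where 10.4% and 7.11% of all genes tested were. The counts were 1 and 7 without Nrf2 TKO library 2 and 1 and 4 without p62 TKO library 4. Gls2, liver glutaminase, stood at 121, 212, 206 and 135 CPM against 701, 427, 569.7 and 469 CPM (-1.69 ± 0.35, adjusted p = 0.0021), and Igf1, the growth factor the liver secretes, at 340.4, 333, 337 and 291 CPM against 896, 577, 649.7 and 622 CPM (-1.08 ± 0.19, adjusted p = 0.00058). Arg1, the last enzyme of the urea cycle, was lower as well (-1.03 ± 0.27, adjusted p = 0.0091). The groups did not overlap for any of these 3 genes. Ctsc, a cathepsin, was the member called higher (0.81 ± 0.19, adjusted p = 0.0044). Of 20 pericentral genes 1 was higher, Cyp2a5, and 2 lower, where 10.4% and 7.11% of all genes tested were. Cyp2e1, the ethanol-inducible cytochrome, was among the lower, at 2212, 2076, 2215 and 1819 CPM against 3369, 5350.2, 5867 and 3459 CPM (-1.12 ± 0.24, adjusted p = 0.0026). Glul, glutamine synthetase of the central vein, did not pass (0.15).

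Drug and bile acid genes were called in both directions. Of 29 xenobiotic cytochromes, transferases and receptors tested (30 listed) 3 were higher and 5 lower, where 10.4% and 7.11% of all genes tested were. With total counts alone 6 were higher and 5 lower, where 18.8% and 3.46% of all genes tested were. Ugt2b35, a glucuronosyltransferase, stood at 224, 306, 258 and 386 CPM against 33.4, 26.99, 57.2 and 19.1 CPM (3.103 ± 0.27, adjusted p = 1.8e-07), with p62 TKO near the WT mean of 323 ± 76.97 CPM. Cyp2c29, a cytochrome, stood at 174, 189.9, 187 and 183 CPM against 560.2, 594, 606 and 575 CPM, both far under the WT mean of 2009 ± 323 CPM (-1.67 ± 0.33, adjusted p = 0.0013). Neither gene overlapped between the groups, and both belong to clusters of close paralogs. Of 21 bile acid genes tested (23 listed) 1 was higher, Slc51b, an exporter subunit (2.33 ± 0.57, adjusted p = 0.0063), and 2 lower. Over all genes tested 17.5% were called in either direction. Without Nrf2 TKO library 2 or 4 the counts were 1 and 4. Slc10a1, the main bile acid importer, stood at 151, 163, 224 and 88.4 CPM against 342, 390.0, 622 and 283 CPM (-1.39 ± 0.27, adjusted p = 0.0012), while the export pump Abcb11 did not pass (-0.67 ± 0.34, adjusted p = 0.19).

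Lipid genes were lower in p62 TKO where called. Of 17 lipogenesis genes 0 were higher and 5 lower (median -0.70), where 7.11% of all genes tested were called lower. The counts were 0 and 6 without Nrf2 TKO library 2 and 0 and 3 without p62 TKO library 4. Mlxipl, the carbohydrate-sensing transcription factor ChREBP, stood at 164, 216, 219.7 and 259 CPM against 678, 356, 421 and 381 CPM (-1.096 ± 0.19, adjusted p = 0.00044), and the fatty acid elongase Elovl5 at 210.4, 337, 287 and 233 CPM against 806, 738, 435 and 602 CPM (-1.27 ± 0.27, adjusted p = 0.0024). Both were lower in every p62 TKO library. Scd1, the desaturase, was called (-1.13 ± 0.37, adjusted p = 0.038) but lost without p62 TKO library 1, 3 or 4 or Nrf2 TKO library 1 or 4 (adjusted p from 0.059 to 0.11). Of 25 genes of fatty acid oxidation and PPARA targets 0 were higher and 6 lower (median -0.23), among them Fabp1, the fatty acid carrier (1404, 1455, 1234 and 1055 CPM against 4296, 4089, 3396 and 2069 CPM, -1.43 ± 0.40, adjusted p = 0.016), and Acaa2, a thiolase (-0.65 ± 0.17, adjusted p = 0.0081). Of that list 3 were lower with total counts alone or without p62 TKO library 1, 4 without p62 TKO library 3 or 4, and 2 without both libraries that stood apart. Of 20 cholesterol synthesis genes edgeR and DESeq2 called 0, and 2 had an unadjusted edgeR p under 0.05, while 4 were higher with total counts alone and 2 without Nrf2 TKO library 1. With total counts alone 18.8% of all genes tested were called higher and 3.46% lower.

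Respiratory chain genes were lower where called. Of 30 nuclear genes of oxidative phosphorylation 0 were higher and 14 lower (median -0.37), where 7.11% of all genes tested were called lower. The changes ran from -0.88 to -0.12. Cox7b, a subunit of complex IV, stood at 111, 134, 122 and 131 CPM against 283, 217, 221 and 192 CPM (-0.88 ± 0.13, adjusted p = 0.00012), and Cox5b at 150.1, 210.0, 172 and 198 CPM against 345, 277, 272 and 246 CPM (-0.64 ± 0.13, adjusted p = 0.0021). Neither overlapped between the groups. The count for the 30 genes depended on the scaling. With total counts alone the median was -0.17 and 2 of 30 were lower, where 3.46% of all genes tested were. The count was 9 without p62 TKO library 4, 8 without p62 TKO library 3, 7 without Nrf2 TKO library 1 and 4 without p62 TKO library 1. Of 13 mitochondrially encoded genes 0 were higher and 6 lower (median -0.50), or 4 with total counts alone and 3 without Nrf2 TKO library 1. mt-Cytb stood at 6056, 6204, 6551 and 7275 CPM against 18207, 10722, 12224 and 10977 CPM (-0.999 ± 0.21, adjusted p = 0.0018).

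Stress and growth pathways were called in part, where 17.5% of all genes tested were called. Of 24 ATF4 target genes 5 were higher and 0 lower (median 0.47), where 10.4% of all genes tested were called higher, or 10 and 0 with total counts alone, where 18.8% were. Asns, asparagine synthetase, stood at 33.9, 45.2, 33.8 and 31.5 CPM against 7.62, 4.16, 7.36 and 9.75 CPM (2.33 ± 0.63, adjusted p = 0.014), and Psat1, of serine synthesis, at 20.7, 20.6, 17.7 and 35.3 CPM against 5.45, 6.17, 3.003 and 6.08 CPM (2.18 ± 0.29, adjusted p = 2.9e-05). Fgf21, a stress hormone of the liver, stood at 7.79, 6.53, 7.58 and 26.9 CPM against 1.49, 4.24, 0.387 and 1.26 CPM, with p62 TKO library 4 far above the rest (2.68 ± 0.67, adjusted p = 0.0080, or 1.95 and 0.049 without it). Atf4 itself did not pass (-0.06). Of 20 endoplasmic reticulum chaperones 1 was lower, Hsp90b1 (-0.62 ± 0.20, adjusted p = 0.031), lost without p62 TKO library 1 or 4 or Nrf2 TKO library 1 or 4 (adjusted p from 0.069 to 0.093). However, 11 were lower without Nrf2 TKO library 2, whose summed level of 3689 CPM was the lowest of its group, beside 4473 to 5417 CPM in p62 TKO and up to 7970.2 CPM in the other Nrf2 TKO libraries. Hspa5, the main chaperone of the compartment, then went from -0.47 (adjusted p = 0.22) to -0.71 (adjusted p = 0.036). Of 16 cytosolic heat shock genes 1 was lower, or 3 without that library or without p62 TKO library 4. Of 31 proteasome genes 1 was higher, Psmd8 (0.74 ± 0.15, adjusted p = 0.0014). Of 20 p53 targets 2 were higher, Pmaip1, which triggers apoptosis (10.8, 5.99, 8.97 and 13.8 CPM against 3.17, 2.23, 1.07 and 2.41 CPM, 2.15 ± 0.33, adjusted p = 0.00012), and Perp (0.47 ± 0.14, adjusted p = 0.022), lost without p62 TKO library 2 or Nrf2 TKO library 1 (adjusted p from 0.072 to 0.12). Of 20 genes of mTORC1 signalling 1 was higher, Castor1 (0.87), lost without p62 TKO library 1 or Nrf2 TKO library 1 or 3 (adjusted p from 0.076 to 0.092), and 1 lower, Nprl2 (-0.42), lost without p62 TKO library 1, 3 or 4 or Nrf2 TKO library 1 or 3 (adjusted p from 0.062 to 0.11). Of 23 acute phase genes tested (24 listed) edgeR called 0, with 3 at an unadjusted p under 0.05, and DESeq2 called 1 (median -0.23). The direction of the acute phase genes turned with single libraries: 0 were higher and 3 lower without Nrf2 TKO library 2 (median -0.44), but 2 were higher and 0 lower without Nrf2 TKO library 4 (median 0.51), and 2 and 0 with total counts alone. With total counts alone 4 proteasome genes and 3 mTORC1 genes were higher and 0 lower, and the chaperones of the endoplasmic reticulum had 1 higher and 0 lower.

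**Figure D5:**
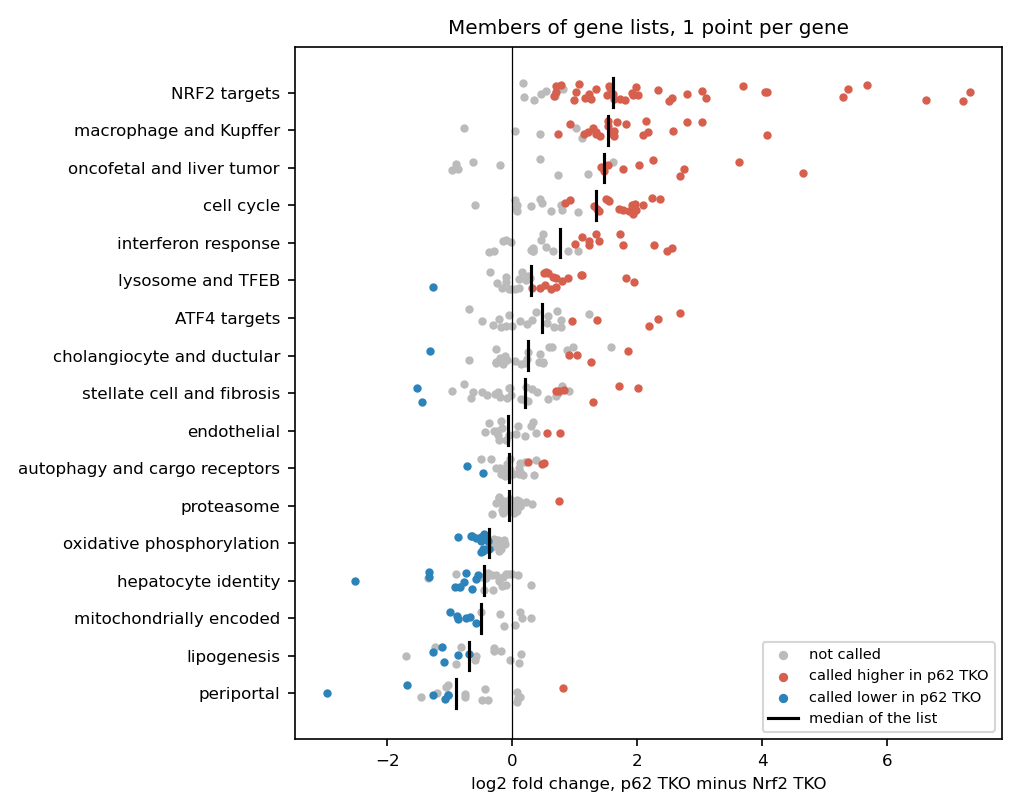
Log2 fold changes (p62 TKO minus Nrf2 TKO) of the tested members of 17 gene lists, each point 1 gene, coloured where called, with the list median as a bar. NRF2 targets, macrophage, oncofetal and cell cycle genes lie mostly to the right (medians 1.33 to 1.61), and periportal, lipogenesis, mitochondrially encoded and hepatocyte genes mostly to the left (medians -0.90 to -0.45).

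Among the largest single differences, several genes were near 0 in one group. The transcript CAAA01147332.1, an unplaced gene on scaffold JH584295.1 (66 to 1479), stood at 16.1, 18.9, 21.8 and 13.6 CPM in p62 TKO and had 0 counts in all Nrf2 TKO libraries, at least 259-fold higher in p62 TKO if Nrf2 TKO is set to 3 counts in all. WT held 6.28 ± 0.847 CPM and DKO 28.998 ± 9.21 CPM, so Nrf2 TKO alone of these 4 groups lacked it. In the other direction Prm1, protamine 1 of sperm chromatin (chromosome 16, 10796326 to 10805839, minus strand), stood at 8.61, 7.21, 6.88 and 5.12 CPM in Nrf2 TKO and had 1 count in p62 TKO and 0 in WT and DKO. The ratio was 360-fold, with a 95% counting interval of 64.2 to 14278. Prm1 overlaps Gm10343 on the other strand.

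Further genes had large increases. Slc1a1, a glutamate and cysteine transporter, stood at 11.2, 20.03, 23.02 and 45.6 CPM against 0.396, 0.372, 0.0969 and 0.0966 CPM (6.596 ± 0.64, adjusted p = 1.0e-06). Abcc12 stood at 27.2, 36.8, 30.3 and 49.8 CPM against 0.297, 1.04, 0.581 and 0.0966 CPM (6.05 ± 0.68, adjusted p = 7.3e-06), and its p62 TKO mean lay above the DKO mean of 7.18 ± 4.09 CPM. Muc13, a membrane mucin, stood at 4.74, 6.53, 7.13 and 4.75 CPM against 0.198, 0.0743, 0 and 0.0966 CPM (5.84 ± 0.91, adjusted p = 0.00043), where DKO held 0.782 ± 0.406 CPM. Apela, a peptide hormone, differed by 6.49 ± 0.95 (adjusted p = 0.00020). Serpinb9e (15.01, 1.88, 5.001 and 22.04 CPM) had 2 counts in Nrf2 TKO, a ratio of 249.6 with an interval of 68.8 to 2066, and Lipn (2.69, 4.47, 6.91 and 6.23 CPM) had 1 count there, a ratio of 224 with an interval of 39.8 to 8879.

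Further genes had large decreases. Hamp2, a hepcidin paralog, stood at 3.54, 2.68, 3.16 and 10.05 CPM in p62 TKO and 335, 493, 78.7 and 29.2 CPM in Nrf2 TKO (-5.59 ± 0.88, adjusted p = 0.00029), where WT held 1.81 ± 1.03 and DKO 14.4 ± 6.16 CPM. Hamp, which encodes hepcidin and was named after its values were seen, stood at 502, 796, 492 and 220.4 CPM against 1227, 682, 775 and 1564 CPM, overlapped and did not pass (-1.08 ± 0.40, adjusted p = 0.063, but 0.025 without p62 TKO library 2 and 0.043 without Nrf2 TKO library 2), and reads may be shared between these close paralogs. Hamp2 and Slc1a1 also overlap another gene on the opposite strand. Nr4a1, an immediate early nuclear receptor, stood at 3.33, 3.31, 5.15 and 4.44 CPM against 27.3, 74.3, 30.3 and 12.7 CPM (-3.16 ± 0.63, adjusted p = 0.0019), and Leap2, the ghrelin receptor antagonist, at 1.84, 4.203, 2.94 and 2.41 CPM against 32.7, 21.2, 22.2 and 13.5 CPM (-2.98 ± 0.38, adjusted p = 2.3e-05). Neither overlapped. Ppp1r3g, a glycogen-targeting subunit, was lower as well (-3.03 ± 0.84, adjusted p = 0.016, but 0.055 without p62 TKO library 1).

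The remaining large decreases included genes whose level differs between male and female mouse liver, and some of the calls depended on 1 library. Mup3, a major urinary protein, stood at 303, 431, 610.2 and 138 CPM against 3724, 1050.1, 7054 and 5511 CPM (-3.55 ± 0.71, adjusted p = 0.0018), with Nrf2 TKO library 2 the lowest of its group. Slco1a1, an organic anion importer, stood at 5.804, 8.49, 5.66 and 6.46 CPM against 80.5, 13.98, 128 and 63.3 CPM (-3.44 ± 0.49, adjusted p = 8.5e-05). Neither overlapped between the groups, and WT held 10298 ± 726 CPM of Mup3 and 375 ± 86.9 CPM of Slco1a1. Mup18 stood at 7.82, 6.62, 156 and 49.7 CPM in Nrf2 TKO (-4.05 ± 1.05, adjusted p = 0.012), and Hsd3b5 at 1.19, 0.149, 35.8 and 1.45 CPM with 2 counts in p62 TKO, a ratio of 233 with an interval of 64.2 to 1934. Both lost their call without Nrf2 TKO library 3, the highest (adjusted p = 0.066 and 0.11). Cyp17a1, a steroid hydroxylase, stood at 7.43, 16.6, 14.8 and 6.23 CPM against 163, 82.1, 40.1 and 67.8 CPM (-2.97 ± 0.86, adjusted p = 0.022), and was not called without p62 TKO library 1, p62 TKO library 4 or Nrf2 TKO library 1 (adjusted p from 0.067 to 0.069).

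Over the lists of sex-biased liver genes, 9 of 21 male-biased genes were lower in p62 TKO and 0 higher (median -1.55). Over all genes tested 7.11% were called lower. Without Nrf2 TKO library 2, 13 of the male-biased genes were lower. Serpina1e stood at 8488, 38.8, 10954 and 7476 CPM in Nrf2 TKO, lowest in library 2, against 248, 226, 483 and 103 CPM in p62 TKO (-4.67 ± 1.04, adjusted p = 0.0042), and Elovl3 at 31.2, 1.34, 358 and 32.2 CPM against 1.06, 0.805, 2.43 and 0.623 CPM (-6.39 ± 1.43, adjusted p = 0.0045). Nrf2 TKO library 2 lay under all p62 TKO libraries in Serpina1e and within their range in Elovl3. Of 15 female-biased genes tested (21 listed) 1 was higher, Cyp2a4 (5.16 ± 1.01, adjusted p = 0.0018), and 8 lower, but without Nrf2 TKO library 2 the counts were 2 and 2, and without p62 TKO library 1, 3 or 4 they were 1 and 5. Sult2a1, a sulfotransferase, stood at 0, 105, 0.291 and 0.0966 CPM in Nrf2 TKO, and its change went from -7.95 (adjusted p = 0.011) to -0.38 (adjusted p = 0.84) without that library. Cyp2c40 went from -4.21 (adjusted p = 0.0061) to -1.52 (adjusted p = 0.12) and Cyp2b9 from -3.49 (adjusted p = 0.017) to -1.21 (adjusted p = 0.27). Prlr, the prolactin receptor, stayed lower (-1.42 ± 0.38, adjusted p = 0.014, and 0.037 without library 2). Cyp2a4 belongs to the Cyp2a cluster of near-identical paralogs, as does Cyp2a5, so its value as a single gene is less certain.

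The direction of the difference was then set beside that of the shared deletions, DKO versus WT, a comparison that shares no library with p62 TKO or Nrf2 TKO. In it 5873 genes (37.1%) were called higher in DKO and 5115 (32.3%) lower. Of the 1649 genes higher in p62 TKO than in Nrf2 TKO, 1266 (76.8%) were higher in DKO than in WT and 121 (7.34%) lower. These 1266 are 21.6% of the genes higher in DKO. Of the 1127 genes lower in p62 TKO, 830 (73.6%) were lower in DKO and 63 (5.59%) higher, and the 830 are 16.2% of the genes lower in DKO. Among the 13075 genes not called between the triple knockouts, 34.8% were higher and 31.8% lower in DKO.

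The order of the group means varied among these genes. Of the 1266, 625 had both triple knockout means between those of WT and DKO, as did Gpnmb (WT 0.145 ± 0.0661, Nrf2 TKO 2.26 ± 1.14, p62 TKO 39.1 ± 12.1 and DKO 58.5 ± 35.1 CPM). In 434 of the 1266 the p62 TKO mean lay beyond that of DKO, as for Ly6d, and in 267 the Nrf2 TKO mean lay on the far side of WT, as for Gstm1. Of the 830 genes, 421 had both means between, as did Alb, 357 had the Nrf2 TKO mean beyond WT, as did Hpd (Nrf2 TKO 3086 ± 374 and WT 2212 ± 245 CPM), and 70 had the p62 TKO mean beyond DKO. These positions are of means and were not tested.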

How the data were processed

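Polyadenylated RNA of 24 liver samples of 6 genotypes was sequenced with a stranded library kit as single reads on a NextSeq 550, per the labels' protocols. Per the submitters' processing notes, Trimmomatic 0.36, HISAT2 2.1.0, HTSeq and GRCm38 were used, and the authors deposited 1 table of raw gene counts with 33019 genes. The sources used here do not give the annotation release or the strand setting. Of the genes, 32953 matched GENCODE M21 by identifier. Columns were assigned by title. Genes passing edgeR's filterByExpr over all 24 libraries (15851) were fitted with 1 mean per genotype and 18 residual degrees of freedom, with TMM scaling and no covariate (edgeR 4.0.16, limma 3.58.1, R 4.3.3); the fit was tested on simulated counts. DESeq2 1.42.0 and the other settings are described under the dependence on the processing. Tables and figures used matplotlib 3.10.9, scipy 1.17.1, numpy 2.4.6 and pandas 2.3.3 under Python 3.11.15. No pair of libraries of the same genotype agreed within sampling noise.

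The members and the 39 gene lists were chosen with earlier results of these data known. Named genes were the targeted genes, the 10 called genes with the greatest fold in each direction, given a group mean of 5 CPM or more, no overlap and a call without Nrf2 TKO library 2 (predicted genes left out), and from each list up to 6 called members of smallest adjusted p and 3 of highest level. Every member of the KEAP1-NRF2 control list and of the sex chromosome list was also named. Some genes that the rule picks are not reported here. Gclm, Srxn1, Gsta3 and Hamp, and the list members Abcc2, Akr1b8, Atp6v0d2, Ccr2, Cd163, Cd5l, Clec4f, Col1a1, Col1a2, Foxa2, Gclc, Gstm6, Gstp1, Hnf4a, Krt19, Marco, Mcm2, Mcm3, Mcm4, Mcm5, Mcm6, Mcm7, Mgst3, Mrc1, Sox9, Tfe3, Timd4, Txn1 and Vsig4 where outside that rule, were chosen after their values were seen. For a gene with 1 to 3 counts in a group the ratio has a 95% interval for counting error only, and for 0 counts it is a lower bound against 3 counts over the group. The total of 10494080 to 12795277 counts per library sets this precision.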

Additional observations from a re-analysis of the deposited data

Results flagged for a closer look

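Each level described above was compared with the others of its group of 4, and a library was listed where the gap to its nearest neighbour exceeded Dixon's 95% critical value as a share of the group's range. Among the 336 groups of values compared, chance alone lists about 1 in 20 where the values are normally spread. That rate does not hold for groups at 0 in all but 1 library, which are always listed (Prm1, Serpinb9e and Lipn). p62 TKO library 1 lay above the other 3 libraries of its group in Krt19 (38.3 CPM against 10.1 to 13.8). p62 TKO library 2 lay above the other 3 libraries of its group in Sult2a1 (0.179 CPM against 0.0708 to 0.0779). p62 TKO library 2 lay below the other 3 libraries of its group in Lrat (2.06 CPM against 6.47 to 7.22). p62 TKO library 3 lay above the other 3 libraries of its group in Becn1 (51.1 CPM against 44.7 to 45.8) and Prm1 (0.0736 CPM against 0). p62 TKO library 4 lay above the other 3 libraries of its group in Abcc4 (192 CPM against 70.1 to 82.4), Apela (17.4 CPM against 5.63 to 7.43) and Fgf21 (26.9 CPM against 6.53 to 7.79). It also lay above them in Hamp2 (10.05 CPM against 2.68 to 3.54), Nqo1 (129 CPM against 40.01 to 49.6) and Slc7a11 (337 CPM against 136 to 161). p62 TKO library 4 lay below the other 3 libraries of its group in Ccr2 (16.1 CPM against 31.1 to 34.0) and Igf1 (291 CPM against 333 to 340.4). Nrf2 TKO library 1 lay above the other 3 libraries of its group in Col5a2 (1578 CPM against 459.9 to 532), Gpx2 (0.495 CPM against 0 to 0.0743) and Serpinb9e (0.198 CPM against 0). It also lay above them in Slc7a11 (3.07 CPM against 0.484 to 0.892). Nrf2 TKO library 2 lay above the other 3 libraries of its group in Cyp2b9 (275 CPM against 8.32 to 21.3), Cyp2c40 (45.8 CPM against 0.775 to 3.96) and Sult2a1 (105 CPM against 0 to 0.291). Nrf2 TKO library 2 lay below the other 3 libraries of its group in Ddx3y (0.372 CPM against 80.1 to 91.2), Eif2s3y (0.149 CPM against 79.5 to 85.2) and Uty (0 CPM against 18.6 to 19.5). Nrf2 TKO library 3 lay above the other 3 libraries of its group in Elovl3 (358 CPM against 1.34 to 32.2), Hpd (3643 CPM against 2833 to 2953) and Hsd3b5 (35.8 CPM against 0.149 to 1.45). It also lay above them in Mcm7 (22.1 CPM against 20.5 to 20.7). Nrf2 TKO library 3 lay below the other 3 libraries of its group in Cxcl16 (14.9 CPM against 24.7 to 26.2). Nrf2 TKO library 4 lay above the other 3 libraries of its group in Ctsc (154 CPM against 115 to 119), Lipn (0.0966 CPM against 0) and Sqstm1 (975.4 CPM against 535 to 575). Where the level of the listed library itself was under 1 CPM it rested on at most 5 counts. Nrf2 TKO library 2, listed for 3 Y-linked genes, is the library whose sex-linked transcripts read as female. The reasons for the gaps in the other genes were not tested.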

How the results depend on the processing

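Against 1649 genes higher and 1127 lower in p62 TKO, total counts alone gave 2987 and 549, the groups compared fitted alone gave 1083 and 594, and no filter on low counts gave 1431 and 694. DESeq2's size factors gave 1693 and 1052 and DESeq2 gave 1955 and 1293. Leaving out each of the 8 libraries in turn gave 1203 to 1672 higher and 749 to 1360 lower, the lowest lower count without p62 TKO library 1. Leaving out both p62 TKO library 4 and Nrf2 TKO library 2, an alternative chosen after seeing the data, gave 1432 and 831. For DKO versus WT 5873 were higher and 5115 lower, and 10523 to 10836 were called in all with a library left out.

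Replicate numbers did not pair the libraries: the deviations of same-numbered libraries correlated at -0.06, -0.25, 0.16 and -0.16. A replicate block gave 1571 higher and 1054 lower, and Hnf4a 0.0071 in place of -0.05.

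Of the named genes' values under an alternative, 2254 kept their direction and side of the threshold, 166 lost the call, 26 gained it and 26 changed sign. With total counts alone Atf4 was 0.15, Atg5 0.11 and Hnf4a 0.20. With 1 or both of the libraries that stood apart, or any other single library, left out, Atf4 ran from -0.22 to 0.016, Atg5 from -0.21 to 0.012, Glul from -0.090 to 0.51, Hnf4a from -0.28 to 0.35, Keap1 from -0.028 to 0.13, Krt19 from -0.88 to 0.020, Mcm4 from -0.13 to 0.30 and Sox9 from -0.11 to 0.26. The Y-linked genes fell below 0 only without Nrf2 TKO library 2, alone or with p62 TKO library 4: Ddx3y ran from -0.20 to 0.44, Eif2s3y from -0.34 to 0.26, Kdm5d from -0.31 to 0.43 and Uty from -0.090 to 0.49. The cause was not tested for the other genes. Totals of 10494080 counts or more leave genes of a few CPM with wide errors.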

Other observations

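Calls among the neighbours of the deleted genes were counted, without a test. Within 5 Mb of Nfe2l2 on chromosome 2, 8 of 59 tested neighbours (13.6%) were called between p62 TKO and Nrf2 TKO, 4 in each direction. Within 5 Mb of Sqstm1 on chromosome 11, 11 were higher and 11 lower of 107 (20.6%). Near Atg5 on chromosome 10, deleted in both groups, 3 were higher and 2 lower of 45 (11.1%), and near Tsc1, also on chromosome 2, 31 were higher and 6 lower of 189 (19.6%). Over all genes tested 17.5% were called.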
